A study of Mus musculus with 8 samples.

Results

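The hippocampal DNA of Ogg1-/- mice was compared with that of wild type (WT) mice by whole-genome bisulfite sequencing (WGBS), which reads 5-methylcytosine at the level of the cytosine. The Ogg1-/- mice are deficient in Ogg1, by an allele that is not described in the sources used here, the WT mice carry no knockout, and both groups were 6-month-old male C57BL/6N mice kept in home cages without treatment. Each genotype had 2 libraries of whole hippocampus, a mixture of neurons, glia and vessel cells, so a shift in cell types and a shift within a cell type could not be told apart. The sources used here do not say whether each library is a different animal, and the spread between libraries may be technical. The same 2 WT libraries also served as the control of the other knockouts in the study, which lack Mutyh (Mutyh-/-) or both enzymes (DKO).

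The deposited tables hold regions called as differentially methylated, with no value for a region that was tested and not called. The comparison of Ogg1-/- with WT held 3466 of the 9329 entries of the series. Counting each combination of gene, feature and cytosine context once left 3025 regions, and 1528 of them (50.5%) were listed neither for Mutyh-/- nor for DKO. These regions are called Ogg1-only below. The features are the transcription start site (TSS) and transcription end site (TES), each a window of 1 kb to either side, and the gene body between them. The contexts are CG, CHG and CHH, where H is any base but G. Levels are percentages derived from the deposited scores, given for each library or as mean ± SD (n = 2 libraries per genotype), and differences are Ogg1-/- minus WT in percentage points. Each library entered 2 pairs, its level is the average of the 2 pair values, and the cytosines kept could differ between pairs. A difference given without 1 library rests on the 2 pairs that remain, so it need not equal the difference of the printed averages. Coordinates refer to GRCm38 and count from 1. The read depth of the regions is unknown.

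Ogg1 is the DNA glycosylase that removes 8-oxoguanine, the main oxidation product of guanine, from DNA in the first step of base excision repair. Guanine sits next to cytosine in each CpG, the dinucleotide that carries most of the methylation of mammalian DNA, and at CpG-rich start sites methylation usually goes with a silent promoter. Methylated CHH and CHG cytosines are rare in most tissues and more frequent in adult neurons, where Dnmt3a places them. In the tables the level of a region is a median over the cytosines that were kept, so the CHH and CHG levels below describe methylated stretches and not the average cytosine of a gene.

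The start sites of the following genes carry the Ogg1-only findings described below and differ widely in CpG number. RefSeq promoter sequences (GRCm38.p6, 250 bases before to 50 after the start) were found for 16 of the 21 named Ogg1-only TSS regions. They are printed 5′ to 3′ with CpG dinucleotides in capitals for the 5 genes with a CG region, and with cytosines in CHH context on the printed strand in capitals for Gpx3. The tables do not say which of these bases were measured.
Slc7a11: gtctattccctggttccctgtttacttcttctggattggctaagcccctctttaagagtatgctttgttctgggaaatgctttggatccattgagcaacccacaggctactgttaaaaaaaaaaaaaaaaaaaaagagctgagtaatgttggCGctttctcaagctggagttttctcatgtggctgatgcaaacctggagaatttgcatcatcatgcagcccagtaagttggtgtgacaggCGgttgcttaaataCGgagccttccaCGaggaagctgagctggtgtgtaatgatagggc
Lacc1: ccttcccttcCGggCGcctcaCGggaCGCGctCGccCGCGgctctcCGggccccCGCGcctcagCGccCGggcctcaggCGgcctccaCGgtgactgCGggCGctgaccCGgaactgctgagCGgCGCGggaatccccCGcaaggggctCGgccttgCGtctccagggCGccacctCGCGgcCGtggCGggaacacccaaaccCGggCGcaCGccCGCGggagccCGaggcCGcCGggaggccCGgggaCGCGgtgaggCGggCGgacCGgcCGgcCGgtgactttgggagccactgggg
Rbfox3: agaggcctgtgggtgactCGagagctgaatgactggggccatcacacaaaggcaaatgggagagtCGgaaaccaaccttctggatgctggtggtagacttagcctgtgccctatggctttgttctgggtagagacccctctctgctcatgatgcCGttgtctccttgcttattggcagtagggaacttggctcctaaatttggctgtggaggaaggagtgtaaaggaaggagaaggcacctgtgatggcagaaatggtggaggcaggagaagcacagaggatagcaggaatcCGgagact
Zfp872: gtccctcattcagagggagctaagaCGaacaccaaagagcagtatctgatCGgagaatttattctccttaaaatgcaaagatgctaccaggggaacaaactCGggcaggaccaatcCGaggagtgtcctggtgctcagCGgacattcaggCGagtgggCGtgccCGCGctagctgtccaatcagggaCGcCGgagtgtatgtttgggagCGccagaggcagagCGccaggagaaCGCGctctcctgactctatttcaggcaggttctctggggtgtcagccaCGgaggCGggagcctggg
Nudt1: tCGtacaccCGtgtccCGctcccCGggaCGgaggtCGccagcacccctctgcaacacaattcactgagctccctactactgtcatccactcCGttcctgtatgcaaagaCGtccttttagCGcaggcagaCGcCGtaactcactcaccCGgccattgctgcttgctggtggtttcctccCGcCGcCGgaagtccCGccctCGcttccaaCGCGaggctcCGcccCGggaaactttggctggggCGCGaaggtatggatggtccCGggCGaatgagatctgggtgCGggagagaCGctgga
Gpx3: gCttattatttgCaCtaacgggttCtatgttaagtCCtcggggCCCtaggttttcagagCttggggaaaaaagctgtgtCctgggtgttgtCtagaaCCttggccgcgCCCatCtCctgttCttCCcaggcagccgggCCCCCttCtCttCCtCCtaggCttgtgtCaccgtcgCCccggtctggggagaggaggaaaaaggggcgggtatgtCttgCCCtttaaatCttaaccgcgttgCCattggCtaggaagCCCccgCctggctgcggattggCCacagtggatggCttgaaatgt
Slc7a11 lies at chr3:50443564-50443863, minus strand, and Lacc1 at chr14:77036568-77036867, minus strand. Rbfox3 lies at chr11:118760992-118761291, minus strand, and Zfp872 at chr9:22187916-22188215, plus strand. Nudt1 lies at chr5:140331706-140332005, plus strand, and Gpx3 at chr11:54902604-54902903, plus strand. The printed promoter had 4 CpG dinucleotides in Slc7a11, 4 in Rbfox3, 17 in Zfp872, 27 in Nudt1 and 45 in Lacc1. Over 32812 RefSeq promoters of the same length, the median was 7 CpG dinucleotides. The Gpx3 promoter had 52 cytosines in CHH context on its strand.

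Listed regions were mostly lower in Ogg1-/-. In CG context, 490 of 1277 regions (38.4%) were higher in Ogg1-/- and 787 were lower. In CHH context 4 of 1744 regions (0.229%) were higher and 1740 lower, and in CHG context all 4 listed regions were lower. The other knockouts, compared with the same WT libraries, were alike. Gains were 32.5% of the listed CG regions in Mutyh-/- and 39.4% in DKO, and 0.511% and 2.05% of the CHH regions. Among 21883 protein-coding genes of the annotation, 5.29% had a CG region listed in Ogg1-/- and 7.05% a CHH region. For Ogg1-only regions these shares were 2.71% in CG context and 3.51% in CHH context. The number of regions the authors tested is not given in the sources used here, so these shares are over annotated genes.

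In CG context, Ogg1-only regions leaned further towards loss than the full list. Their share of gains was lower in gene bodies and similar at start and end sites. Gene bodies were also a smaller part of them, with 315 of 652 regions, against 772 of 1277 in the full list. Gains were 36.5% of the Ogg1-only CG gene body regions, against 54.7% of all listed CG gene body regions. At start sites these shares were 11.8% and 11.9%, and at end sites 18% and 16.1%. Of the 652 Ogg1-only CG regions, 163 were higher in Ogg1-/- and 489 lower. In gene bodies, 115 of 422 gains and 200 of 350 losses were Ogg1-only. At start sites, 24 of 37 gains and 180 of 275 losses were Ogg1-only, and at end sites 24 of 31 gains and 109 of 162 losses. In CHH context, 873 regions were Ogg1-only, with 715 gene body losses, 101 TES losses, 56 TSS losses and 1 gene body gain.

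**Figure D1:**
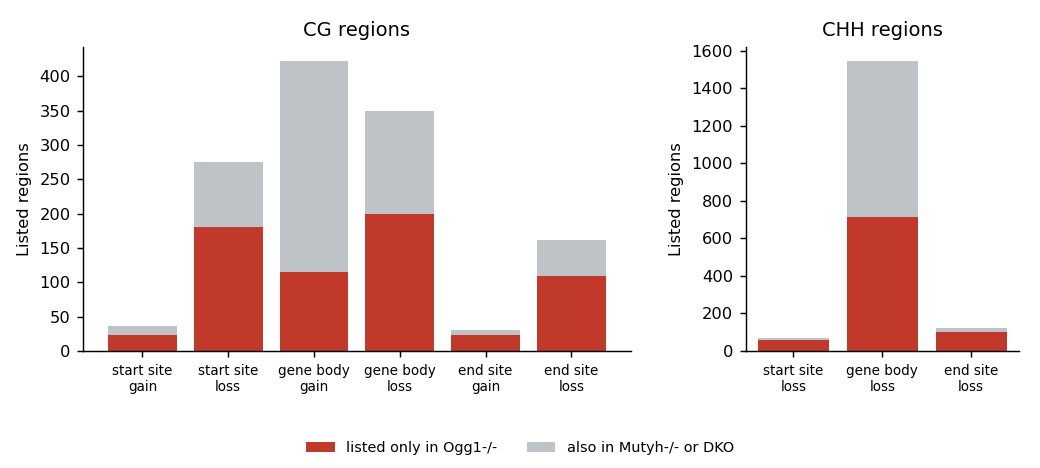
Number of listed regions (vertical axes) by feature and direction in Ogg1-/- against WT, in CG context on the left and CHH context on the right; the 4 CHH gains are left out. Red is Ogg1-only and grey is also listed for Mutyh-/- or DKO: of 422 CG gene body gains 115 were Ogg1-only, while of 275 CG TSS losses 180 were.

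Differences were of similar size in each class. Ogg1-only CG gains had a median of +21.5 points, with median levels of 82.5% and 81% in the Ogg1-/- libraries, against 59% and 60% in the WT libraries. Ogg1-only CG losses had a median of -20.8 points, with 51.5% and 51.5% in Ogg1-/-, against 73.5% and 73% in WT. CHH losses had a median of -18.2 points, with 23% and 23% in Ogg1-/-, against 41.5% and 41.5% in WT. Over all listed regions the median difference was +21.5 points for CG gains, -20.8 points for CG losses and -18 points for CHH losses. The authors describe a threshold of 0.1 on the relative ratio, with 1 sign in all 4 library pairs, so small differences are absent by construction. Recomputed from the deposited median scores, the smallest ratio was 0.093, so the threshold is not met exactly on these medians. The genotypes did not overlap in 99.4% of regions, which follows from the selection. With 2 libraries against 2, an exact permutation test cannot go below p = 0.333, and no test of single regions was made.

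At CG start sites the Ogg1-only gains were led by a divergent pair of genes and by a transporter for antioxidant synthesis. Lacc1, an enzyme of purine nucleoside metabolism in macrophages, had 100% and 83% in Ogg1-/- libraries, against 65% and 63% in WT libraries (chr14:77035618-77037617). The window of its divergent neighbour Ccdc122 overlaps it, so the 2 regions are not separate observations. Ccdc122 had 96.5% and 77.5% in Ogg1-/-, against 62.5% and 60% in WT. In both windows replicate 1 of Ogg1-/- was well above replicate 2, and both were above WT.

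Slc7a11, the cystine importer that feeds glutathione synthesis, had 79.5% and 75.5% in Ogg1-/- libraries, against 54% and 50% in WT libraries (chr3:50442614-50444613). The libraries of each genotype lay within 4 points of each other there. Its gene body was listed in the opposite direction, with 56% and 57% in Ogg1-/-, against 74.5% and 76% in WT, and that region was also listed for another knockout. Trim63, a ubiquitin ligase of muscle, had 78.5% and 82.5% in Ogg1-/-, against 53.5% and 60% in WT (chr4:134314120-134316119). Rbfox3, the splicing factor known as the neuronal marker NeuN, had 76.5% and 68.5% in Ogg1-/-, against 51.5% and 47% in WT (chr11:118760042-118762041).

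The largest Ogg1-only TSS losses were at BC064078, Zfp872, D8Ertd82e and Rhox2h. BC064078 had 46% and 54% in Ogg1-/- libraries, against 84.5% and 85.5% in WT libraries (chr6:128992020-128994019), the largest Ogg1-only CG loss at any feature. Zfp872, a zinc finger gene, had 40% and 31.5% in Ogg1-/-, against 69.5% and 64% in WT (chr9:22187166-22189165). D8Ertd82e, a pseudokinase gene named Prag1 in RefSeq, had 36.5% and 47.5% in Ogg1-/-, against 70.5% and 74% in WT (chr8:36093828-36095827). Rhox2h, a homeobox gene of the reproductive cluster on the X chromosome, had 61.5% and 77.5% in Ogg1-/-, against 100% and 96% in WT (chrX:37672278-37674277). Its Ogg1-/- libraries were 16 points apart, wider than in the other 3. Predicted or clone-named genes were set aside by the naming rule, 2 among these losses and 1 among the gains.

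In gene bodies the largest Ogg1-only gain was at Zeb1, a zinc finger repressor of epithelial genes. Zeb1 had 86% and 94% in Ogg1-/- libraries, against 43% and 54% in WT libraries (chr18:5592860-5774468), the largest CG difference of the whole comparison at +41.5 points. Cacna1d, the L-type calcium channel Cav1.3, had 81.5% and 74.5% in Ogg1-/-, against 46.5% and 49.5% in WT (chr14:30040941-30352486). Mup2, a major urinary protein made in liver, had 89.5% and 74.5% in Ogg1-/-, against 52.5% and 53.5% in WT, and Gpr50, the melatonin-related receptor on the X chromosome, had 56.5% and 63% in Ogg1-/-, against 32% and 30% in WT. The WT libraries of Zeb1 were 11 points apart, and those of Cacna1d, Mup2 and Gpr50 at most 3.

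Among Ogg1-only gene body losses, and leaving out 4 predicted genes of similar or larger loss, the largest were at Gvin1, Tmem28, Sncaip and Magix. Gvin1, a large interferon-induced GTPase, had 65% and 67% in Ogg1-/- libraries, against 94% and 100% in WT libraries (chr7:105896119-105952970). It belongs to a family of near-identical copies, so reads may be shared between copies and its level is uncertain. Sncaip, which encodes the synuclein-binding protein synphilin-1, had 54% and 43% in Ogg1-/-, against 82.5% and 70% in WT. The X-linked genes Tmem28 and Magix had 41% and 40% in Ogg1-/-, against 67% and 71.5% in WT and 61.5% and 55.5% in Ogg1-/-, against 82.5% and 87% in WT. No library of one genotype overlapped the other at these 4 regions, as the selection requires in nearly all regions.

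At transcript ends, the largest Ogg1-only losses included a myelin enzyme. Cnp, the myelin phosphodiesterase of oligodendrocytes, had 51% and 53% in Ogg1-/- libraries, against 87% and 82.5% in WT libraries (chr11:100580740-100582739). Nbr1, an autophagy receptor, had 45.5% and 42.5% in Ogg1-/-, against 71% and 73.5% in WT, and Cdk2, a cell cycle kinase, had 51.5% and 52% in Ogg1-/-, against 81.5% and 77.5% in WT. Pip5kl1, a phosphoinositide kinase-like gene, had 40.5% and 35% in Ogg1-/-, against 56.5% and 77.5% in WT. The WT libraries of Pip5kl1 were 21 points apart, whereas those of Cnp, Nbr1 and Cdk2 were within 4.5 points. The largest Ogg1-only gains, leaving out 1 predicted gene, were at Golga1, Camk1, Rab20 and Ap2a1. Golga1, a golgin of the trans-Golgi, had 88.5% and 82.5% in Ogg1-/-, against 59% and 58.5% in WT. Rab20, a small GTPase, had 81.5% and 87.5% in Ogg1-/-, against 62.5% and 56% in WT, and Ap2a1, a subunit of the endocytic adaptor AP-2, had 73% and 76% in Ogg1-/-, against 51% and 50% in WT.

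**Figure D2:**
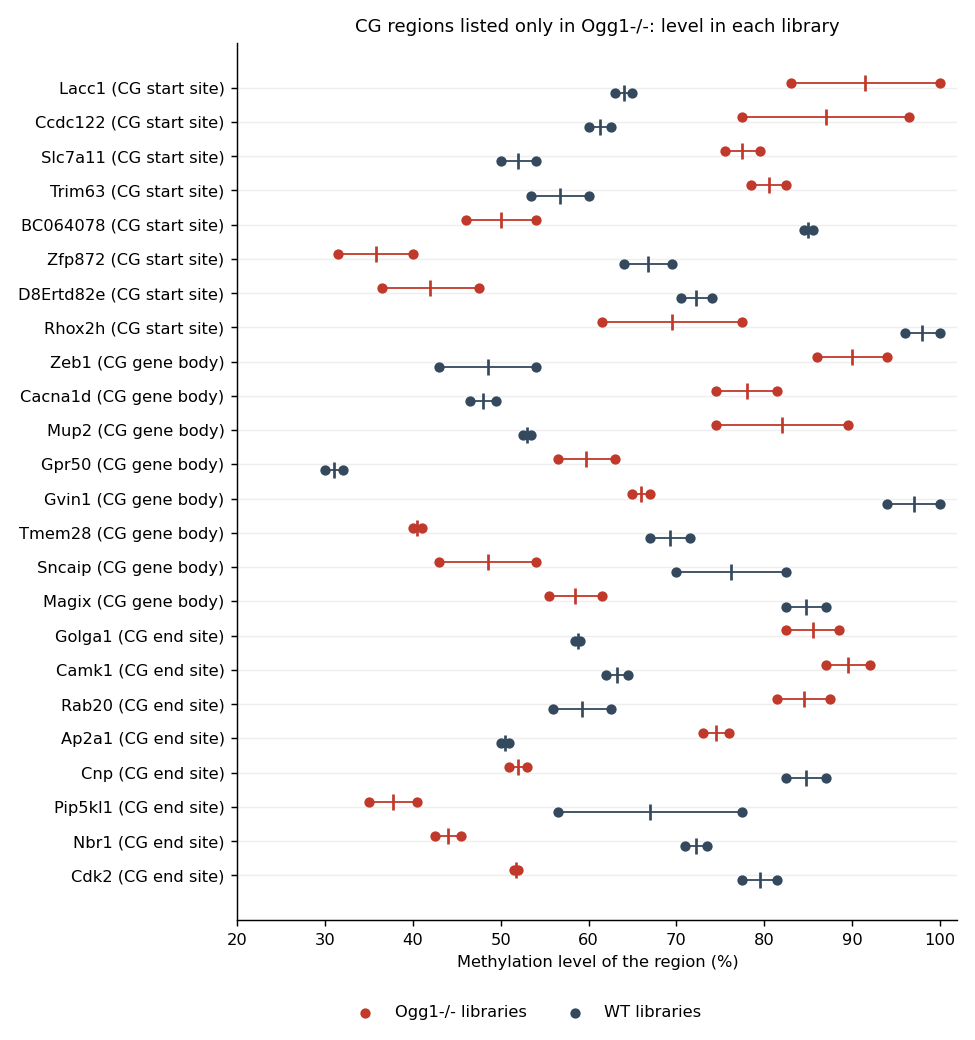
Methylation level in percent (horizontal axis) of the 24 named Ogg1-only CG regions in each Ogg1-/- library (red) and WT library (blue); dots are libraries and ticks their means. At Zeb1 the Ogg1-/- libraries lie at 86% and 94%, against 43% and 54% in WT, and Pip5kl1 shows the widest WT spread.

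The targeted gene itself was listed, at its end. The Ogg1 TES window had 86.5% and 91% in Ogg1-/- libraries, against 66% and 64% in WT libraries (chr6:113333187-113335186). It overlaps the TES window of Camk1, a calcium/calmodulin-dependent kinase on the opposite strand, which had 87% and 92% in Ogg1-/-, against 64.5% and 62% in WT (chr6:113333124-113335123), so the 2 entries are not separate observations. Neither was listed for Mutyh-/- or for DKO, although DKO mice also lack Ogg1. No region of Mutyh was listed in Ogg1-/-. The tables hold no expression and no read depth over the deleted part of Ogg1, so the genotype labels could not be checked with them.

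Listed regions were counted around the Ogg1 gene (chr6:113326972-113334877), since DNA next to a targeted locus can stem from the embryonic stem cells used to make the knockout. Within 1 Mb, 9 regions were listed in Ogg1-/-, 6 in Mutyh-/- and 5 in DKO. Within 5 Mb, the counts were 23 of 3025 in Ogg1-/- (0.76%), 15 in Mutyh-/- (0.516%) and 13 in DKO (0.559%). Within 20 Mb they were 76 in Ogg1-/- (2.51%), 49 in Mutyh-/- (1.68%) and 52 in DKO (2.24%). All 3 comparisons share the WT libraries, and the share was highest in Ogg1-/- at each distance counted, with no test made. Chromosome 6 as a whole also held a higher share in Ogg1-/- (6.88%) than in Mutyh-/- (5.78%) or DKO (5.93%). DKO mice also lack Ogg1. Their share was near that of Mutyh-/- within 5 Mb and between those of Mutyh-/- and Ogg1-/- within 20 Mb. Of the 23 Ogg1-/- regions within 5 Mb, 14 were Ogg1-only.

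The 9 regions within 1 Mb of Ogg1 went in both directions. Slc6a11, a GABA transporter of astrocytes, had a CG gene body level of 80.8% ± 3.89 in Ogg1-/- and 60% ± 2.83 in WT and a CHH level of 27% ± 0 in Ogg1-/- and 44% ± 5.66 in WT, both Ogg1-only. Atp2b2, a plasma membrane calcium pump, had an Ogg1-only CG loss with 65% and 68.5% in Ogg1-/-, against 75.5% and 97% in WT. The TES windows of the neighbours Prrt3 and Creld1 lay on the loss side, with 58.5% and 54% in Ogg1-/-, against 75% and 81% in WT for Prrt3 and 58% and 55% in Ogg1-/-, against 72.5% and 77% in WT for Creld1, and were listed elsewhere too. These 2 windows overlap, so they are not separate observations. Srgap3 and Lmcd1, the other 2 genes in this window, were losses listed elsewhere as well. How far sequence differences near the targeted gene contribute was not tested.

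**Figure D3:**
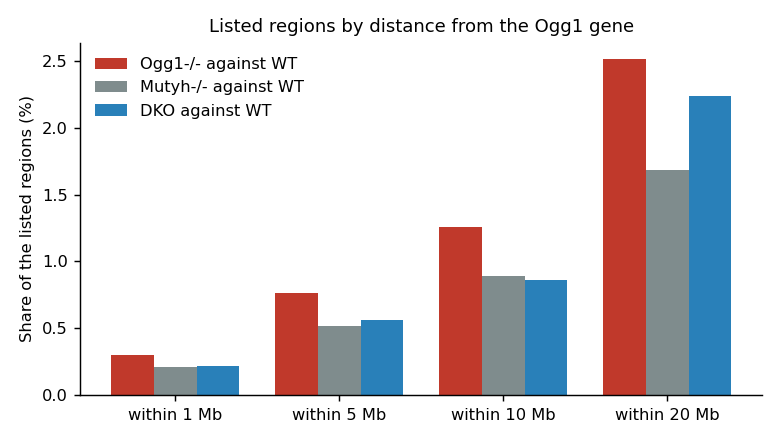
Share of the listed regions of each comparison (vertical axis, percent) that lay within a given distance of the Ogg1 gene (horizontal axis). The bars for 5 Mb are at 0.76% in Ogg1-/-, 0.516% in Mutyh-/- and 0.559% in DKO; all share the same WT libraries.

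CHH context held most Ogg1-only regions, and all but 1 of these CHH regions were losses. This direction was not particular to Ogg1-/-. Of the listed CHH regions, 1364 of 1371 were losses in Mutyh-/- and 765 of 781 in DKO, against the same WT libraries. At start sites the 4 largest Ogg1-only losses, leaving out 3 predicted genes, were at Fam170b, Tcl1b3, Hoxb2 and Gpx3. Gpx3, the secreted glutathione peroxidase, had 26% and 27.5% in Ogg1-/- libraries, against 45% and 57% in WT libraries (chr11:54901854-54903853). Hoxb2, a homeobox gene of hindbrain patterning, had 24.5% and 31% in Ogg1-/-, against 41.5% and 64.5% in WT (chr11:96350632-96352631). Fam170b had 21.5% and 20% in Ogg1-/-, against 61.5% and 35% in WT, and Tcl1b3, of a gene family expressed in early embryos, had 27.5% and 27.5% in Ogg1-/-, against 62% and 47% in WT. In these 4 regions the Ogg1-/- libraries were at most 6.5 points apart, while the WT libraries were 12 to 26.5 points apart. The difference was -15.5 points for Fam170b without WT replicate 1 and -16 points for Hoxb2 without WT replicate 2, so the order of these genes depends on single libraries.

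The largest Ogg1-only CHH gene body loss was at Inppl1, the lipid phosphatase SHIP2, with 32.5% and 21% in Ogg1-/- libraries, against 78% and 51% in WT libraries (chr7:101823632-101836824). Mrps27, a subunit of the mitochondrial ribosome, had 25.5% and 27% in Ogg1-/-, against 60.5% and 54% in WT. Dmrtc2, a germ cell transcription factor gene, had 24% and 38% in Ogg1-/-, against 68% and 56% in WT, and Sgms2, a sphingomyelin synthase, had 25.5% and 16% in Ogg1-/-, against 71% and 32% in WT. The WT libraries of Sgms2 were 39 points apart, and its difference was -15 points without WT replicate 1 and -46.5 points without WT replicate 2. Without 1 library, the difference was -20 points for Dmrtc2 (WT replicate 1) and -20 points for Mrps27 (Ogg1-/- replicate 1). The Ogg1-only CHH loss with the smallest recomputed ratio, at the TES of Fam129a, had 24% and 21.5% in Ogg1-/-, against 42.5% and 38% in WT. The single Ogg1-only CHH gain was Sorcs3, a neuronal sorting receptor, with 35.5% and 31% in Ogg1-/-, against 17.5% and 17.5% in WT (chr19:48207025-48804505).

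At transcript ends, the largest Ogg1-only CHH losses, leaving out 1 predicted gene, included a mismatch repair gene and a Hedgehog pathway gene. Pms1, a MutL homologue of mismatch repair, had 20% and 24% in Ogg1-/-, against 43.5% and 60% in WT (chr1:53188189-53190188). Smo, the signal transducer of the Hedgehog pathway, had 27.5% and 28.5% in Ogg1-/-, against 54% and 58.5% in WT (chr6:29760367-29762366), with genotype spreads of 1 and 4.5 points. Abca14, an ABC transporter gene, had 22% and 24% in Ogg1-/-, against 53% and 48% in WT, and Mycbpap had 27% and 24.5% in Ogg1-/-, against 70% and 36.5% in WT. Smo and Abca14 had close libraries in both genotypes, whereas the WT libraries of Mycbpap differed by 33.5 points and its difference was -14.5 points without WT replicate 1.

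The 4 CHG regions were all losses in gene bodies. Wwox, which spans a common fragile site, had 27% and 27% in Ogg1-/-, against 54.5% and 37.5% in WT, Nav2, a neuron navigator gene of axon growth, had 21% and 24% in Ogg1-/-, against 38% and 39.5% in WT, and Cmss1 had 22.5% and 24% in Ogg1-/-, against 38% and 40.5% in WT. These 3 were Ogg1-only. Cux1, a homeobox gene of upper-layer cortical neurons, had 19% and 28.5% in Ogg1-/-, against 39.5% and 62.5% in WT and was also listed elsewhere. Its difference was -15 points without Ogg1-/- replicate 1.

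**Figure D4:**
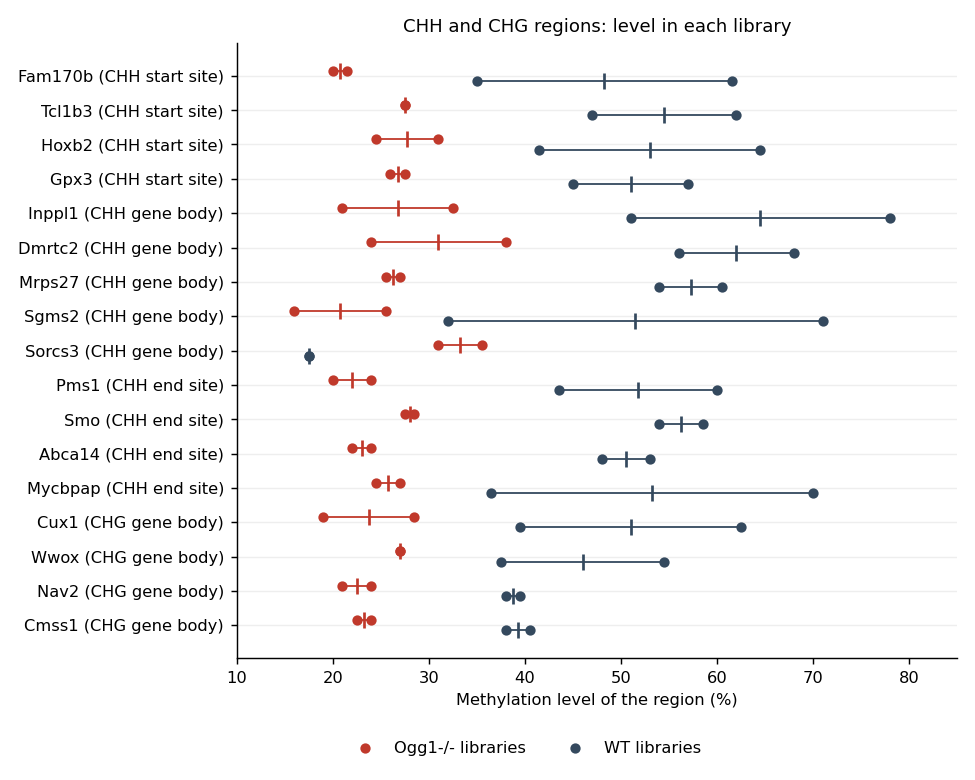
Methylation level in percent (horizontal axis) of 13 Ogg1-only CHH regions and the 4 CHG regions in each Ogg1-/- library (red) and WT library (blue); dots are libraries and ticks their means. Sorcs3 is the only region with higher Ogg1-/- levels, at 35.5% and 31%, and the WT libraries spread further than the Ogg1-/- libraries in most regions.

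CHH levels of Ogg1-/- mostly lay below 25%. Over all 1744 CHH regions, 66.2% of levels were under 25% in each Ogg1-/- library, against 0.229% in each WT library. Of these regions, 1740 were listed as losses, so lower levels in Ogg1-/- than in WT follow from the selection. At the minimum coverage of 4 reads, a cytosine above 0 cannot be under 25%. The median gap between the 2 pair values of a library was 4 points in each Ogg1-/- library and 5 points in each WT library, and in CG regions it was 4 points in every library. What coverage contributed to the CHH difference was not tested, since the tables give no depth.

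The 24 Ogg1-only TSS gains and the 180 Ogg1-only TSS losses differed in CpG number. The 2 kb windows of CG gains had a median of 35.5 CpG dinucleotides, those of CG losses 63, and those of the 56 CHH losses 28.5, against 38 over 32812 RefSeq start sites. A motif of 4 runs of GGG spaced by 1 to 7 bases, searched on both strands, was present in 50% of the gain windows and in 66.1% of the loss windows. It was present in 30.4% of the CHH loss windows and in 51.8% of all start site windows. The motif is frequent in CpG-rich DNA, a match is no evidence of a folded structure, and these shares are descriptions. Windows with more than 100 CpG dinucleotides made up 16.7% of the CG losses and 4.17% of the CG gains, against 18.5% of all start sites. The order of CG gains and losses was not particular to Ogg1-only regions. Start site windows also listed for another knockout had a median of 42 CpG dinucleotides at CG gains and 68 at CG losses. The motif was present in 46.2% and 78.9% of these windows.

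Ogg1-only gene body gains lay in longer genes than losses. The median gene body length was 133 kb for CG gains, 28.5 kb for CG losses and 80.3 kb for CHH losses. CG gains that were also listed for another knockout were longer still, with a median of 381 kb. The CpG density was 7.37 per kb in Ogg1-only gains and 11.4 per kb in losses. A longer gene holds more stretches in which a region can be called, and this was not separated from other differences.

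**Figure D5:**
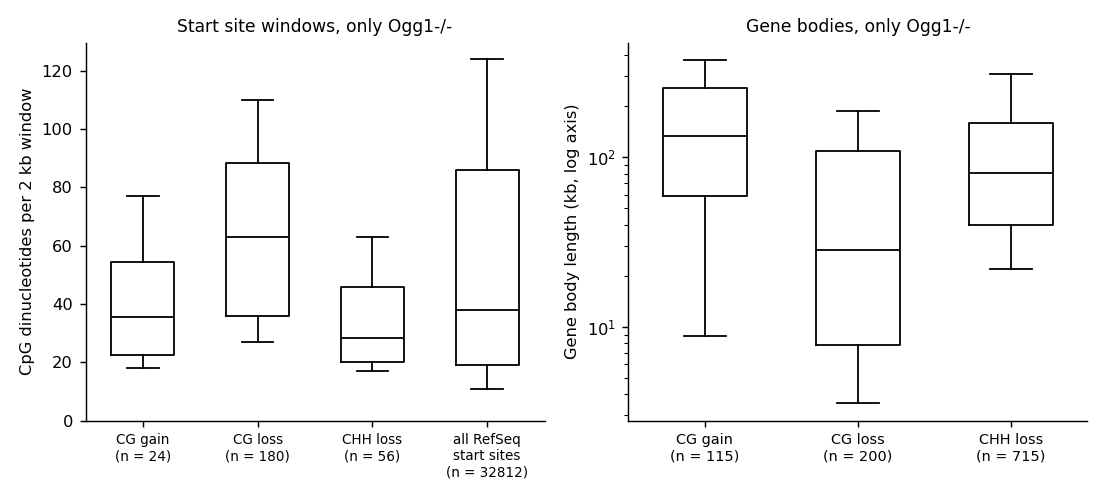
Left, CpG dinucleotides in the 2 kb start site windows (vertical axis) of Ogg1-only CG gains, CG losses and CHH losses, beside all RefSeq start sites; right, gene body length in kb on a log axis. Boxes are quartiles with the median and whiskers the 10th and 90th percentiles: CG losses have a median of 63 CpG dinucleotides and 28.5 kb, CG gains 35.5 and 133 kb.

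The X chromosome held 186 listed regions. In CG context, 98 of the 490 gains (20%) and 67 of the 787 losses (8.51%) lay on it, and in CHH context 21 of the 1740 losses (1.21%). Among Ogg1-only regions, 26 of 163 CG gains and 46 of 489 CG losses were X-linked. Male cells carry a single X, and depth there was not available. Kdm5c, an X-linked histone demethylase, had 75% and 79% in Ogg1-/-, against 100% and 100% in WT.

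Genes of base excision repair and clearance of oxidised nucleotides had 4 of 28 members listed in CG context (14.3%) and none in CHH context, beside 5.29% and 7.05% of all protein-coding genes. The targeted gene Ogg1 is 1 of these 4. The shares given for the lists below are read against these 2 values. All lists were chosen with earlier results of these data known, so a share above these values can stem from that choice. Nudt1, the hydrolase that removes 8-oxo-dGTP from the nucleotide pool, had an Ogg1-only TSS level of 49.8% ± 1.77 in Ogg1-/- and 72.3% ± 7.42 in WT (-22.5 points). Nudt18, a hydrolase of oxidised nucleoside diphosphates, had an Ogg1-only TES level of 61.5% ± 4.95 in Ogg1-/- and 84.8% ± 8.13 in WT. Xrcc1, the scaffold of single-strand break repair, had a TSS level of 40.3% ± 13.8 in Ogg1-/- and 62% ± 2.12 in WT and was also listed elsewhere. With the Ogg1 TES gain, the list had 1 gain and 3 losses.

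Oxidative stress and redox genes had 3 of 54 members listed in CG context (5.56%) and 5 in CHH context (9.26%), close to the shares of all protein-coding genes. Sod3, the secreted superoxide dismutase, had an Ogg1-only gene body level of 70.5% ± 2.12 in Ogg1-/- and 49.8% ± 6.01 in WT. G6pdx, which supplies NADPH, had 73.8% ± 5.3 in Ogg1-/- and 96.8% ± 4.6 in WT and was listed elsewhere too. The list held 2 CG gains and 2 CG losses, with Slc7a11 counted in both directions, and 5 CHH losses that include Gpx3.

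Excitatory synapse genes were mostly gains in CG context, but few of these were Ogg1-only. Of 68 glutamate receptor and excitatory synapse genes, 25 were listed in CG context (36.8%) with 20 gains and 5 losses, of which 1 gain and 3 losses were Ogg1-only. Gene bodies gave 23 of the 25 CG regions, and 54.7% of all listed CG gene body regions were gains. Over all genes, the median gene body length was 295 kb for CG gains and 28.4 kb for CG losses. Dlg1, a postsynaptic scaffold, had 84% ± 12 in Ogg1-/- and 64.8% ± 0.354 in WT. The Ogg1-only losses were at the metabotropic glutamate receptor Grm4 and at 2 neuroligins, the postsynaptic partners of neurexins. Nlgn3 had 64.8% ± 5.3 in Ogg1-/- and 88% ± 6.36 in WT and Nlgn2, at its TES, 61.3% ± 1.77 in Ogg1-/- and 84.8% ± 3.89 in WT. Dlg2, the member with the largest difference, had 85.3% ± 6.01 in Ogg1-/- and 55.5% ± 13.4 in WT and was listed elsewhere. In CHH context 8 members were listed (11.8%), all losses, and 2 were Ogg1-only.

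Voltage-gated and potassium channels had 12 of 74 members listed in CG context (16.2%), all gains, of which 4 were Ogg1-only. Gene bodies gave 11 of the 12 CG regions, and 54.7% of all listed CG gene body regions were gains. Cacna1d was described above, and Kcnh8, a potassium channel, had 91.8% ± 6.72 in Ogg1-/- and 69.8% ± 0.354 in WT. In CHH context 17 members were listed (23%), all losses, and 11 were Ogg1-only. Kcnq1 had a TES level of 26.3% ± 4.6 in Ogg1-/- and 48% ± 9.19 in WT, and Cacna1c, the L-type channel Cav1.2, had 20.8% ± 2.47 in Ogg1-/- and 51.5% ± 12.7 in WT with a region that was listed elsewhere. The Ogg1-only CG gain with the smallest recomputed ratio was also at a channel gene, the G protein-gated potassium channel Kcnj9, which is not a member of this list and had a TSS level of 60% ± 5.66 in Ogg1-/- and 40.8% ± 1.77 in WT.

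Cadherins, protocadherins and catenins had 10 of 50 members with CG gains (20%) and none with CG losses, and 1 gain, at Cdh23, was Ogg1-only. Cdh23, a cadherin of hair cell tip links, had 80.3% ± 0.354 in Ogg1-/- and 60% ± 4.24 in WT in CG context and, at its TSS in CHH context, 27.3% ± 10.3 in Ogg1-/- and 48.3% ± 6.72 in WT. In CHH context 18 members were listed (36%), with 18 losses, 8 of them Ogg1-only, and 1 gain. Cdh1, the epithelial cadherin, had a TES level of 27.8% ± 12.4 in Ogg1-/- and 53.5% ± 4.95 in WT, and Cdh22 had 29.5% ± 0 in Ogg1-/- and 51.3% ± 8.84 in WT. The Cdh1 difference was -16.5 points without Ogg1-/- replicate 2. CG gains and CHH losses thus both occurred in this family. All 10 CG regions lay in gene bodies, where 54.7% of all listed CG regions were gains. Over all genes, 1740 of 1744 listed CHH regions were losses.

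Developmental transcription factors went mostly the other way. Of 219 genes, 24 were listed in CG context (11%) with 3 gains and 22 losses, of which 2 gains and 12 losses were Ogg1-only. Meis2, a homeobox cofactor, had a TES level of 31.8% ± 3.18 in Ogg1-/- and 54.8% ± 1.06 in WT, while Zeb1 gave the largest gain. In CHH context 34 regions of 31 genes (14.2%) were listed, all losses, and 15 were Ogg1-only, led by Hoxb2. Tbx5, a heart and limb factor listed elsewhere too, had 26.5% and 41.5% in Ogg1-/-, against 77.5% and 41.5% in WT, and replicate 2 of Ogg1-/- equalled replicate 2 of WT in these averages. Its difference was -16 points without WT replicate 1.

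Genes of Wnt, BMP, Hedgehog, Notch and FGF signalling had 18 of 124 members listed in CG context (14.5%) with 3 gains and 16 losses, and 1 gain and 11 losses were Ogg1-only. Dkk3, a secreted Dickkopf protein, had a TSS level of 38.3% ± 13.1 in Ogg1-/- and 64.5% ± 2.12 in WT. Bmpr1b, a BMP receptor, had a TES level of 62.5% ± 7.78 in Ogg1-/- and 88% ± 1.41 in WT. Ihh, the Indian hedgehog ligand and the Ogg1-only CG loss with the smallest recomputed ratio, had 30% ± 1.41 in Ogg1-/- and 48.3% ± 6.01 in WT. In CHH context 27 regions of 27 genes (21.8%) were listed, all losses, and 12 were Ogg1-only. Smad7, an inhibitor of TGF-beta signalling, had 20.5% ± 0.707 in Ogg1-/- and 46.8% ± 12.4 in WT, with differences of -15.5 points without Ogg1-/- replicate 1 and -15 points without WT replicate 1.

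Plasticity, CREB and cyclic nucleotide genes had 15 of 75 members listed in CG context (20%), with 9 gains and 7 losses. Of these, 1 gain (Camk1) and 3 losses were Ogg1-only. Nr4a3, an activity-induced nuclear receptor, had a TSS level of 39.8% ± 1.77 in Ogg1-/- and 61.3% ± 0.354 in WT, and Prkacb, a catalytic subunit of protein kinase A, had 30.3% ± 1.77 in Ogg1-/- and 50.5% ± 9.19 in WT. Adcy8, a calcium-stimulated adenylyl cyclase, had a CG gain to 88.3% ± 3.89 in Ogg1-/- and 62.8% ± 1.06 in WT that was listed elsewhere and an Ogg1-only CHH loss.

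Axon guidance genes had 13 of 78 members listed in CG context (16.7%), with 6 gains and 7 losses. The 3 Ogg1-only regions were losses, among them Efna4, an ephrin ligand, with a TES level of 62.3% ± 20.2 in Ogg1-/- and 86.8% ± 2.47 in WT, and Sema4a, a semaphorin, with 34% ± 1.41 in Ogg1-/- and 57.3% ± 1.77 in WT. In CHH context 18 members were listed (23.1%), with 19 losses alone. Plxnd1, a semaphorin receptor, led 9 Ogg1-only CHH losses with 28.5% ± 6.36 in Ogg1-/- and 53.3% ± 1.06 in WT. Collagen and matrix genes had 11 of 88 members listed in CG context (12.5%), with 5 gains and 7 losses, and 32 in CHH context (36.4%) with 34 losses. The 3 Ogg1-only CG losses were at Col6a6, Tnc and Bcan, and the 2 Ogg1-only CG gains at the laminin genes Lama4 and Lama3, with 89.3% ± 7.42 in Ogg1-/- and 62.5% ± 14.8 in WT and 86% ± 0.707 in Ogg1-/- and 64.3% ± 3.89 in WT. Col4a6, a basement membrane collagen, had a CHH level of 28% ± 2.83 in Ogg1-/- and 52.8% ± 3.89 in WT.

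GABA synapse genes had 6 of 30 members listed in CG context (20%), with 3 gains and 3 losses, and Slc6a11 was among the Ogg1-only gains. Imprinted genes had 8 of 51 members listed in CG context (15.7%), with 1 gain and 9 losses, of which 1 gain and 5 losses were Ogg1-only. In CHH context 11 were listed (21.6%), all losses, and 5 of these were Ogg1-only. Gnas, the gene of the stimulatory G protein alpha subunit, had a TSS level of 46.3% ± 1.06 in Ogg1-/- and 69.5% ± 2.12 in WT, and Snrpn, of the Prader-Willi region, had 52% ± 4.95 in Ogg1-/- and 74.3% ± 7.42 in WT. Commd1 gave the gain, with 100% and 61.5% in Ogg1-/-, against 57.5% and 59.5% in WT and a difference of +19 points in the 2 pairs without Ogg1-/- replicate 1, in which the WT levels differ from these averages. Kcnq1 is also imprinted.

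Chromatin genes gave few regions. None of 23 genes of DNA methylation and demethylation had a CG region, and Mbd2, a methyl-CpG binding protein, was the only one with a CHH region (34.3% ± 6.01 in Ogg1-/- and 53% ± 4.24 in WT). Polycomb and Trithorax genes had 4 of 52 members in CG context (7.69%), all losses, and 3 in CHH context (5.77%), all losses, shares near those of all protein-coding genes. Kdm5c and the CHH losses of Phc2, a subunit of Polycomb complex 1 (22.8% ± 1.06 in Ogg1-/- and 44.5% ± 7.07 in WT), and Kdm2b (23% ± 6.36 in Ogg1-/- and 42.5% ± 9.19 in WT) were among the Ogg1-only regions. Kdm6b, a demethylase of H3K27me3, had a TES level of 47.3% ± 6.72 in Ogg1-/- and 71.8% ± 0.354 in WT and was listed elsewhere.

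Markers of cell types were examined because whole tissue was sequenced. Neuronal markers had 6 of 30 members listed in CG context (20%), all gains, of which Syn1, Rbfox3 and Snap25 were Ogg1-only. Syn1, a synaptic vesicle protein, had 86% and 77.5% in Ogg1-/-, against 45% and 70% in WT. Oligodendrocyte and myelin markers had 6 of 28 members listed in CG context (21.4%), with 1 gain and 5 losses, of which 1 gain and 4 losses were Ogg1-only. Ugt8a, which makes the myelin lipid galactocerebroside, was the gain, with 74.5% and 77.5% in Ogg1-/-, against 45.5% and 58% in WT, and Gjb1, a myelin connexin, had 66% and 67% in Ogg1-/-, against 90% and 84.5% in WT. Gains made up 38.4% of all CG regions and 25% of Ogg1-only CG regions, so the mostly lower myelin list went the common way. Gene bodies gave 5 CG regions of each list, and 54.7% of all CG gene body regions were gains. Both lists held few regions, and the contrast between them was not tested. In CHH context both held losses alone, 5 regions of the neuronal list with 3 Ogg1-only and 3 regions of the myelin list with 2 Ogg1-only. Rbfox1, a neuronal splicing factor with a CG gain listed elsewhere, had an Ogg1-only CHH level of 21.8% ± 3.18 in Ogg1-/- and 43.8% ± 8.84 in WT.

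The other marker lists held between 1 and 5 listed members in a context, or none. Astrocyte markers had 1 of 18 members with a CG gain (5.56%), at Slc1a2, and 2 with CHH losses (11.1%) that were Ogg1-only, Slc4a4 (23.3% ± 2.47 in Ogg1-/- and 48% ± 3.54 in WT) and Acsbg1 (20.5% ± 0 in Ogg1-/- and 41.5% ± 4.95 in WT). Microglia and immune markers had 2 of 24 members in CG context (8.33%) and none in CHH context. Aif1, the microglial protein Iba1, had an Ogg1-only level of 77.3% ± 2.47 in Ogg1-/- and 55.5% ± 4.24 in WT, and Cfp, properdin, had 71.8% ± 3.89 in Ogg1-/- and 100% ± 0 in WT and was listed elsewhere. Vessel, pericyte and choroid plexus markers had 2 of 26 members in CG context (7.69%), both losses, with Kdr, the endothelial VEGF receptor, as the Ogg1-only one (49.5% ± 0 in Ogg1-/- and 67.5% ± 0 in WT). Pdgfrb, the pericyte receptor, led 5 CHH losses (19.2% of the list) with 30.8% ± 3.89 in Ogg1-/- and 58.3% ± 19.4 in WT. The part of cell composition in these values was not tested.

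The C-type lectin and natural killer gene complex had 4 of 38 members with CG losses (10.5%) and none with gains. Klrb1c, the receptor NK1.1, had 65.5% ± 2.12 in Ogg1-/- and 88% ± 2.12 in WT, and Clec2i, a ligand of natural killer receptors, had a TSS level of 70.3% ± 3.18 in Ogg1-/- and 91.5% ± 0.707 in WT, both Ogg1-only. Klra22, named Klra1 in RefSeq, had 53.3% ± 0.354 in Ogg1-/- and 78.3% ± 1.77 in WT and was listed elsewhere. Klrb1c, Clec2i and Klra22 lie on the chromosome of Ogg1, inside the 20 Mb window counted above, as does BC064078. How far sequence differences near the targeted gene contribute to these losses was not tested. Families within this complex, such as Klra, hold similar gene copies, and the complex differs between mouse strains, so these values are uncertain.

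A total of 202 genes were listed in both CG and CHH context in Ogg1-/-, and 33 of them had no region of any kind in another knockout. Over these 33 genes there were 11 CG gains, 22 CG losses and 33 CHH losses. Prex2, a Rac activator, had a CG level of 77.3% ± 15.9 in Ogg1-/- and 49.8% ± 9.55 in WT and a CHH level of 20% ± 0 in Ogg1-/- and 34.5% ± 2.83 in WT in its gene body, so its contexts went opposite ways. Dkk3, Bmpr1b and Ninj2 were lower in both contexts. Ninj2, an adhesion molecule induced by nerve injury, had a CG TES level of 57.8% ± 6.72 in Ogg1-/- and 82.8% ± 3.18 in WT and a CHH gene body level of 22.3% ± 5.3 in Ogg1-/- and 41.5% ± 2.12 in WT. The CHH gene body level was 25.5% ± 4.24 in Ogg1-/- and 42.8% ± 1.06 in WT for Dkk3, and 26.3% ± 6.72 in Ogg1-/- and 44.5% ± 14.8 in WT for Bmpr1b.

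More than 1 feature of a gene was listed for 32 genes in CG context and for 50 in CHH context. In 11 of the 32 genes, the CG features went in opposite directions. Slc7a11 was such a gene, and Tbkbp1, an adaptor of the kinase TBK1, showed the same order, with an Ogg1-only TSS level of 64.3% ± 1.77 in Ogg1-/- and 45% ± 3.54 in WT and a gene body level of 55.3% ± 1.06 in Ogg1-/- and 74.5% ± 7.78 in WT. The opposite order was seen in Tmem132d, with an Ogg1-only TSS level of 27.5% ± 1.41 in Ogg1-/- and 46.5% ± 3.54 in WT and a gene body level of 90.5% ± 3.54 in Ogg1-/- and 71.3% ± 2.47 in WT. Caln1, a calcium-binding protein of neurons, had 63.8% ± 3.18 in Ogg1-/- and 86% ± 2.83 in WT at its Ogg1-only TSS and 86.8% ± 2.47 in Ogg1-/- and 65.3% ± 1.06 in WT in its gene body. Synpo, an actin-associated protein of dendritic spines, had an Ogg1-only TES level of 77.5% ± 0 in Ogg1-/- and 58.3% ± 1.06 in WT and an Ogg1-only TSS level of 38.5% ± 13.4 in Ogg1-/- and 59.8% ± 2.47 in WT. Tbkbp1, Tmem132d, Caln1 and Synpo, and above Grm4, Col6a6, Tnc and Bcan, were chosen for naming after their values were seen.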

How the data were processed

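The labels gave 2 Ogg1-/- and 2 WT libraries. The authors inspected reads with FastQC, aligned them to GRCm38 with Bismark 0.22.3 (submitters' processing notes), removed cytosines with coverage under 4 and called regions with HMST-Seq-Analyzer. It compares each of 4 library pairs by a Wilcoxon rank-sum test, requires 3 methylated sites at TSS and TES or 5 in the gene body at most 200 bp apart, and keeps a relative ratio beyond 0.1 of 1 sign in every pair. Called regions of the 3 contexts were deposited. The deposited methylation medians are a score from 1 to 2, read as 1 plus the methylated fraction. The coordinates are those of the whole feature. The deposited relative ratios and p-values per pair (8 columns per table) hold the authors' own comparisons and were not used.

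From the scores, the level of a library was the score minus 1, times 100, averaged over its 2 pairs (Python 3.11.15, pandas 2.3.3, numpy 2.4.6). Starts were converted to 1-based. Each gene, feature and context counted once, with its largest difference, and 2 such combinations had entries in both directions. Of 2738 symbols, 2606 matched RefSeq directly, 105 by synonym, 14 after restoring a separator and 2 by position where a spreadsheet had made dates, and 11 did not match. No p-value was computed. The values of 1 region named by the rule below are not reported here. The counting steps were tested on simulated data. Named were all CHG regions, Ogg1 and Mutyh, the 4 largest Ogg1-only regions per CG or CHH feature and direction (predicted names set aside), up to 3 Ogg1-only and the largest other region per gene list, 4 genes listed in both contexts and those with the smallest ratio recomputed from the scores. The members and the 20 gene lists were chosen with earlier results of these data known. Alternatives were a stricter ratio, other counting of entries and keys, leaving out each library, leaving out X and Y, and gene bodies alone. Depth per region is unknown, and no interval was computed.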

Additional observations from a re-analysis of the deposited data

Results flagged for a closer look

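A total of 7 regions were listed in all 3 knockouts with a direction in Ogg1-/- opposite to that in both Mutyh-/- and DKO. They stood out by this opposition, the difference between knockouts was not tested, and the comparisons share the WT libraries. Myo1d, an unconventional myosin, had a CG gene body level of 84% ± 9.9 in Ogg1-/- and 61.8% ± 0.354 in WT, a difference of +22.25 points, beside -18 in Mutyh-/- and -20.25 in DKO. Spag16, an axoneme protein of cilia and sperm tails, had a CG gene body level of 60.8% ± 9.55 in Ogg1-/- and 82.8% ± 1.06 in WT, a difference of -22 points, beside +22 in Mutyh-/- and +24.25 in DKO. Skint5, a skin and thymus immunoglobulin-like gene, had a CG gene body level of 83.5% ± 4.24 in Ogg1-/- and 63% ± 9.9 in WT, a difference of +20.5 points, beside -24.25 in Mutyh-/- and -37 in DKO. Cdk5r1, the p35 activator of the neuronal kinase Cdk5, had a CG TES level of 35.3% ± 0.354 in Ogg1-/- and 55.3% ± 0.354 in WT, a difference of -20 points, beside +19 in Mutyh-/- and +17.25 in DKO. Phactr1, a regulator of actin and protein phosphatase 1, had a CG gene body level of 64% ± 4.95 in Ogg1-/- and 83.5% ± 4.24 in WT, a difference of -19.5 points, beside +22.5 in Mutyh-/- and +25.5 in DKO. Tmem108, a neuronal membrane protein, had a CHH gene body level of 33.8% ± 1.06 in Ogg1-/- and 18.5% ± 3.54 in WT, a difference of +15.25 points, beside -19.5 in Mutyh-/- and -15 in DKO. Nckap5 had a CHH gene body level of 19.5% ± 2.12 in Ogg1-/- and 33% ± 3.54 in WT, a difference of -13.5 points, beside +14.25 in Mutyh-/- and +14.5 in DKO. The WT level of the same region was not the same in each table, for all 7 regions, although the WT libraries are shared. In the Ogg1-/-, Mutyh-/- and DKO tables in turn, the WT mean was 61.8%, 77% and 85% for Myo1d, 82.8%, 71% and 64.8% for Spag16, and 63%, 96% and 90.3% for Skint5. It was 55.3%, 39.3% and 40% for Cdk5r1, 83.5%, 66.5% and 56% for Phactr1, 18.5%, 40.8% and 40.3% for Tmem108, and 33%, 15.3% and 18% for Nckap5. The WT level in the Ogg1-/- table was below that in both other tables at the 3 gains and above it at the 4 losses. Over 501 CG entries with the same coordinates in the Ogg1-/- and Mutyh-/- tables, the WT level differed by a median of 3.5 points, with a 90th percentile of 11.5 and a highest value of 33 points. Over 506 shared with the DKO table the median was 3.75 points, the 90th percentile 11.9 and the highest 53.5 points, beside a gap of 5 points between the WT libraries. The position of the kept cytosines within a feature is not in the tables, and whether these opposite values belong to the same cytosines was not tested.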

How the results depend on the processing

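Of 47 alternative values of the counts and medians, 39 stayed within 1.5 times the value given, or within the spread of the libraries for a median. None changed direction. With a relative ratio of at least 0.2 in all 4 pairs, 0 regions were left in each class (CG gains, CG losses, CHH gains, CHH losses and CHG losses), since the ratios computed from the scores have medians of 0.125 for CG gains, -0.129 for CG losses and -0.136 for CHH losses. These ratios were taken on the scores from 1 to 2, on which a given difference is a smaller ratio than on percentages, so the 0 belongs to that scale. Counting Ogg1-only regions alone left 14 of the 23 regions within 5 Mb of Ogg1. The median RefSeq gene length of Ogg1-only regions moved to 139 kb for CG gains, against 85.7 kb over all features, and to 36.3 kb for CG losses, against 19.9 kb, when only gene bodies were used. Ogg1-only counts depended on the key: 652 CG and 873 CHH regions became 508 and 635 when any region of the gene in another knockout counted as shared, and 616 and 843 with positional overlap. Leaving out 1 library at a time gave medians of 21 to 21.5 points for Ogg1-only CG gains, -21 to -20.5 for CG losses and -18 to -17.5 for CHH losses. No region of the 3025 changed direction. The selection fixed this in advance, since all 4 pairs of a listed region share 1 sign. Between 6 and 21 regions moved by over 1.5 times. Over 116 named regions, 28 of 464 such values moved beyond the spread. The stricter p-value limits planned at first were not run, since those columns hold the authors' own comparisons. No paired analysis was possible because no test was made and every library of 1 genotype was already paired with each of the other.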
